A study of Mus musculus with 6 samples.

Results

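Complex I of the mitochondrial respiratory chain was followed through its nuclear genes in the hippocampus of Rsk2-KO and WT mice. Members were all genes whose single annotated symbol starts with Nduf, which takes in subunits of the complex, assembly factors and Ndufa4. Of 12393 genes with a single symbol on the arrays, 39 met this rule, and each was represented by its probe set with the highest mean log2 signal over the 6 arrays. The rule uses signal level and name, not the difference between genotypes, but the family was chosen with earlier results of these data known. All 39 members lay above the limit set for dim probe sets, a mean signal of 19.2, so none was lost from the 7866 genes tested. Members whose probe sets carry more than 1 symbol (Ndufb4, Ndufs6 and Ndufa11) fall outside the rule.

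The Rsk2-KO group was 3 arrays from male mice lacking Rsk2, the kinase encoded by Rps6ka3. The WT group was 3 arrays from male littermates with the intact gene. Both groups had a C57BL/6J background and were 2 months old, no treatment is named in the labels, and RNA of 2 hippocampi was pooled for each array. The labels do not say whether pools shared animals or how the gene was disrupted, and whole hippocampus mixes neurons with glia and vessels.

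Complex I (NADH:ubiquinone oxidoreductase) takes electrons from NADH, passes them along a flavin and a chain of iron-sulphur clusters to ubiquinone, and pumps protons across the inner mitochondrial membrane. It has the shape of an L, with a matrix arm that carries out the electron transfer and a membrane arm that pumps protons. A small set of core subunits is shared with bacteria; around them lie accessory subunits that stabilise the complex, and assembly factors that help to build it but leave before it is finished. Neurons depend on this chain for most of their ATP, and inherited defects in its subunits and assembly factors cause Leigh syndrome and other encephalopathies.

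The arrays had been scaled to a common trimmed mean, so a difference in total RNA would not be seen. The arrays numbered 3, 1 of each genotype, stood apart from the other 4 on the first principal component of all genes (40.2% of the variance; scores of 20.03 and 23.6 against −15.6 to −6.36). They also had the highest 3′ to 5′ signal ratios of Actb (2.24 and 2.22, against at most 1.63) and the lowest of Tfrc (2.09 and 1.86, against 2.69 to 3.51), but did not stand apart in that of Gapdh (0.774 and 0.823, against 0.719 to 0.783). On the second component of all genes (27.8%), the arrays numbered 1 and 2 split by genotype. Rsk2-KO 1 and 2 scored 17.4 and 13.7 there, and WT 1 and 2 scored −19.4 and −12.4. The arrays numbered 3 lay near 0 (1.32 for Rsk2-KO and −0.55 for WT). Results are therefore also given by array number, for 1 and 2 together and for 3. Rps6ka3 was not lower on the Rsk2-KO arrays: its brightest probe set gave 99.2, 98.4 and 87.0 there and 74.2, 59.7 and 89.2 on the WT arrays, a log2 difference of 0.37 (SE 0.19). Its other probe sets were also higher on average there, by 0.54 (SE 0.37) and, in one under the limit for dim signals, by 1.46. The labels call for loss of this gene, and its signal ran the other way. The place of these probe sets in the transcript was not analysed here with respect to the disruption, so they do not check the labels. Of the hippocampal neuron markers, all 8 on the arrays passed the limit for dim signals, from Prox1, with a lowest signal of 25.1, to Nrgn, with a lowest signal of 600.2.

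No Nduf gene passed the test between the genotypes. In limma, 0 of 39 members passed an adjusted p of 0.05, against 0% of all genes tested, and the lowest adjusted p of a member was 0.617. At an unadjusted p of 0.05 the count of members was also 0, against 7.49% of all genes. The differences were small and mostly negative. Below 0, meaning lower on the Rsk2-KO arrays, were 30 of 39 members, against 56.4% of all genes. The members had a median log2 difference of −0.08, against −0.04 over all genes. WT 1 weighed on both values: without it 24 of 39 members were below 0 and the median was −0.02. The median size of the difference, sign aside, was 0.10 for members and 0.17 for all genes.

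The precision behind these values was better than for the median gene. Standard errors of the log2 difference had a median of 0.15 for members and 0.19 for all genes. The 95% confidence interval of the difference lay wholly within a 1.5-fold change in either direction for 33 members and within a 2-fold change for all 39. The outermost bounds were −0.80 (Ndufa3) and 0.64 (Ndufb1). The groups did not overlap in 3 members, all lower on the Rsk2-KO arrays (Ndufa8, Ndufaf3 and Ndufaf5). That is 7.69% of the members, against 8.76% of all genes. In the opposite direction the count was 0, against 5.47% of all genes; both directions together held 14.2% of all genes. Left without a called member, 0 of 39, were also the fits with array weights (0.203% of all genes called), with a block for replicate number (0.0127%) and with a block for the arrays numbered 3 (0.0127%).

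**Figure D1:**
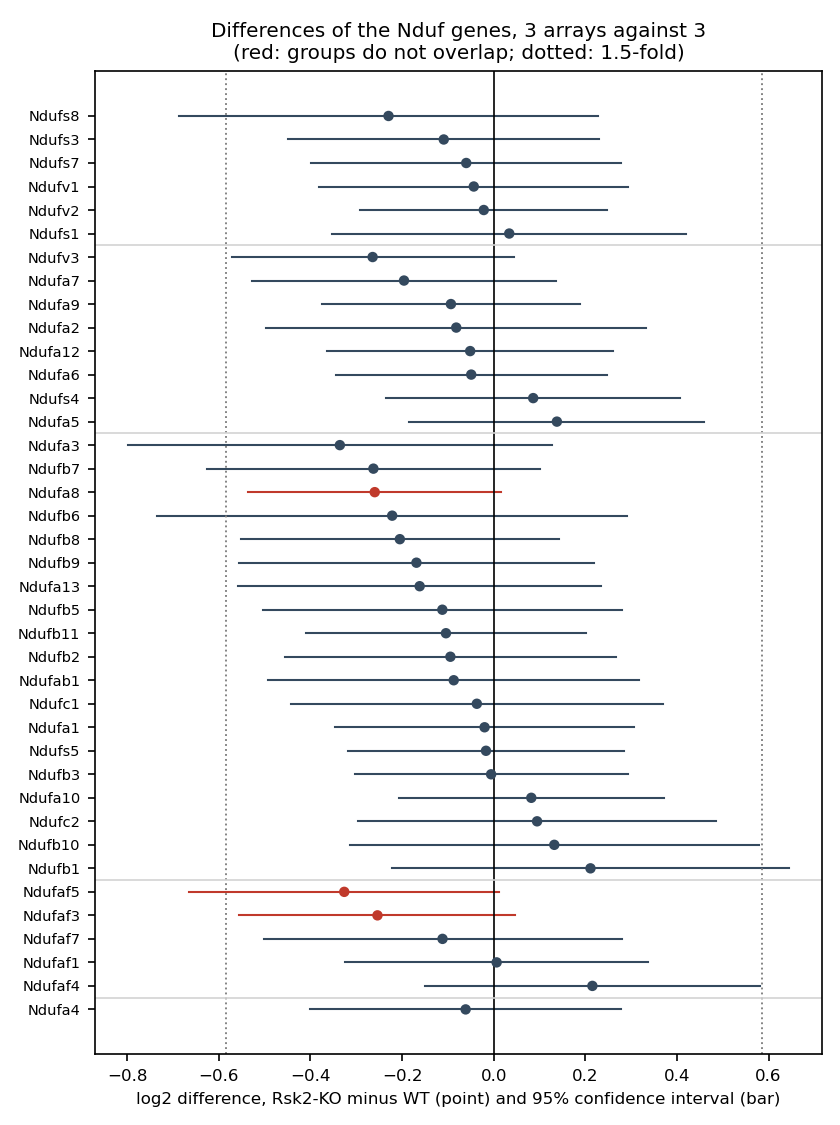
Log2 difference, Rsk2-KO minus WT, of each of the 39 Nduf genes (points) with its 95% confidence interval from limma (bars), 3 arrays against 3; horizontal lines separate core subunits, accessory subunits of the matrix arm, accessory subunits of the membrane arm, assembly factors and Ndufa4. Points are mostly left of 0, every bar crosses 0, and the 3 members whose groups do not overlap are in red.

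The core subunits hold the cofactors of the electron path. Ndufv1, which carries the flavin and the NADH site, gave 664, 676 and 770 on the Rsk2-KO arrays and 649, 666 and 876 on the WT arrays. Its log2 difference was −0.04 (SE 0.15, limma adjusted p = 0.946). The groups overlapped throughout, and within each group the array numbered 3 was the highest. Ndufv2, an iron-sulphur subunit that sits beside Ndufv1, was the steadiest core subunit by brightest probe set: 908, 910 and 980 against 955, 945 and 938. The difference of Ndufv2 was −0.02, with a 95% confidence interval from −0.29 to 0.25. Its other kept probe sets were less steady, with differences of −0.31 (SE 0.32) and 0.06 (SE 0.25).

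Ndufs1, the subunit with the largest number of iron-sulphur clusters, gave 433, 403 and 534 on the Rsk2-KO arrays and 425, 372 and 549 on the WT arrays, a log2 difference of 0.03 (SE 0.17). It was the 1 core subunit above 0. As for Ndufv1, its highest array in each group was the one numbered 3. For Ndufs3, of the part of the arm that binds ubiquinone, the signals were 555, 655 and 568 against 603, 768 and 559, a log2 difference of −0.11 (SE 0.15). Its high array was WT 2, and without it the difference was 0.03.

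Ndufs7 and Ndufs8 carry the last iron-sulphur clusters before ubiquinone. Ndufs7 gave 568, 530 and 656 against 722, 569 and 545, a log2 difference of −0.06 (SE 0.15). Ndufs8 gave 967, 823 and 1245 against 1500, 912 and 1168, a log2 difference of −0.23 (SE 0.21, limma adjusted p = 0.725). Both had their highest signal on WT 1. Without WT 1, the difference at the brightest probe set was 0.07 for Ndufs7 and −0.05 for Ndufs8. The second probe set of Ndufs7 gave 417, 572 and 624 against 652, 640 and 618, a log2 difference of −0.27 (SE 0.17). Among the 6 core subunits measured the median difference was −0.05. Split by array number, the core medians were −0.12 (numbers 1 and 2) and 0.04 (number 3).

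Accessory subunits of the matrix arm gave 6 of 8 members below 0, with a median of −0.07. Ndufv3, a small subunit bound to the NADH end of the arm, had the lowest value. It gave 666, 658 and 772 on the Rsk2-KO arrays and 899, 739 and 881 on the WT arrays, with means of 699 ± 63.3 and 840 ± 87.5 (SD, n = 3 each). Its log2 difference was −0.26 (SE 0.14, limma adjusted p = 0.617), and only Rsk2-KO 3 and WT 2 overlapped. Ndufv3 kept its sign in both sets of arrays, with −0.30 in those numbered 1 and 2 and −0.19 in those numbered 3.

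Ndufa5, of the part of the arm that binds ubiquinone, was highest of this group of subunits. Its signals were 621, 605 and 722 against 607, 509 and 659, a log2 difference of 0.14 (SE 0.15). WT 2 alone was well below the rest, and without it the difference was 0.03. Ndufs4, in which loss in mice is a standard model of Leigh syndrome, differed by 0.09 (SE 0.14). The other members were Ndufa7 (−0.20), Ndufa9 (−0.09), Ndufa2 (−0.08), Ndufa12 (−0.05) and Ndufa6 (−0.05), all with overlapping groups.

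The membrane arm contributed the most members. Of 19 accessory subunits, 15 were below 0, with a median log2 difference of −0.09. Ndufa8, a subunit with paired cysteine motifs on the intermembrane side, was the only one whose groups did not overlap. Its signals were 646, 646 and 669 on the Rsk2-KO arrays and 849, 747 and 755 on the WT arrays. The Rsk2-KO arrays lay close together and below every WT array. Group means stood at 653 ± 13.4 and 784 ± 57.0 (SD, n = 3 each). On the log2 scale Ndufa8 differed by −0.26 (SE 0.12, limma adjusted p = 0.617), with a 95% confidence interval from −0.54 to 0.02.

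Ndufa3 had the largest difference of all members in size, −0.34 (SE 0.21), and also the lowest bound. It gave 1033, 1054 and 1570 against 1966, 1325 and 1319. WT 1 stood far above the other WT arrays, and Rsk2-KO 3 lay above WT 2 and WT 3. Arrays numbered 1 and 2 gave −0.63, arrays numbered 3 gave 0.25, and all arrays but WT 1 gave −0.14. Its second probe set differed by −0.06, and the mean of both by −0.20. The size of the difference of Ndufa3 thus varied with the probe set and with WT 1.

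Ndufb1 was the highest of this group of subunits. It gave 71.8, 85.6 and 93.1 against 90.2, 63.6 and 64.2, a log2 difference of 0.21 (SE 0.20). WT 1 lay within the range of the Rsk2-KO arrays, and most of the difference came from the arrays numbered 3 (0.54, against 0.05 within the others). The value was 0.38 without WT 1, 0.12 without WT 2, 0.13 without WT 3 or Rsk2-KO 3, and 0.035 with array weights. Below 0 were also Ndufb7 (−0.26), Ndufb6 (−0.22), Ndufb8 (−0.20), Ndufb9 (−0.17) and Ndufa13 (−0.16). Closer to 0 lay Ndufb5 (−0.11), Ndufb11 (−0.10), Ndufb2 (−0.09), Ndufab1 (−0.09), Ndufc1 (−0.04), Ndufa1 (−0.02), Ndufs5 (−0.02) and Ndufb3 (−0.01). The remaining members above 0 were Ndufa10 (0.08), Ndufc2 (0.09) and Ndufb10 (0.13). Ndufa13, also known as a cell death regulator, and Ndufab1, the mitochondrial acyl carrier protein, are the members of this group with known roles outside the complex. Ndufa1 and Ndufb11 are X-linked, as is Rps6ka3.

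The assembly factors held the other members without overlap. Ndufaf5, which modifies Ndufs7 during assembly, gave 85.4, 84.3 and 78.6 on the Rsk2-KO arrays and 113, 104 and 95.1 on the WT arrays. Every Rsk2-KO array lay below every WT array. Group means stood at 82.8 ± 3.69 and 104 ± 8.99 (SD, n = 3 each). On the log2 scale Ndufaf5 differed by −0.33 (SE 0.15, limma adjusted p = 0.617). It kept its sign in both sets of arrays (−0.35 and −0.28). Ndufaf3, which acts early with Ndufaf4 in building the part that binds ubiquinone, gave 208, 206 and 223 against 283, 235 and 243. The log2 difference of Ndufaf3 was −0.25 (SE 0.14), with −0.32 in the arrays numbered 1 and 2 and −0.13 in those numbered 3.

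Ndufaf4 had the highest value with all 6 arrays, opposite in sign to Ndufaf3. Its brightest probe set gave 101, 133 and 113 against 101, 88.7 and 108, a log2 difference of 0.22 (SE 0.16, limma adjusted p = 0.690), with overlap. Leaving out Rsk2-KO 2 gave 0.11, and leaving out WT 2 gave 0.14. When WT 1 was left out Ndufaf4 had 0.23, lower than Ndufb1. A second, slightly dimmer probe set gave 117, 121 and 76.6 against 70.2, 67.4 and 67.2. There every Rsk2-KO array lay above every WT array, although Rsk2-KO 3 only by a little. That probe set differed by 0.59 (SE 0.20, limma adjusted p = 0.661 in the fit over probe sets). Ndufaf1, an early factor of the membrane arm, did not move one way: 131, 139 and 157 against 137, 157 and 131, a log2 difference of 0.01 (SE 0.15). Ndufaf7, a methyltransferase, gave 123, 85.4 and 89.7 against 102, 104 and 112, a log2 difference of −0.11 (SE 0.18), with both the highest and the lowest array in the Rsk2-KO group. Leaving out Rsk2-KO 1 gave −0.28, leaving out Rsk2-KO 2 gave −0.012, and leaving out Rsk2-KO 3 gave −0.047.

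Ndufa4 was first counted with complex I and was later placed with complex IV. It gave 1115, 1137 and 1399 on the Rsk2-KO arrays and 1378, 1082 and 1350 on the WT arrays. The groups overlapped fully, and the log2 difference was −0.06 (SE 0.15).

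The promoters of the members were searched for sites of factors known to drive respiratory chain genes. Nuclear respiratory factor NRF1 (searched as GCATGCGC), GABP (CCGGAAGT) and YY1 (AAGATGGC) were looked for on both strands in the 250 bases before each gene start, in RefSeq sequences of GRCm38.p6. These motifs do not overlap one another, except that the NRF1 letters overlap their own reverse complement in the longer palindrome. Of 39 members, 36 were matched, with 38 promoters. The NRF1 letters were in 3 of 38 promoters, or 7.89%, against 4.63% of the promoters of genes tested and 2.26% of all promoters. GABP and YY1 letters were in 0 of 38, against 5.85% and 2.15% of the promoters of genes tested. The 3 with NRF1 letters are shown because they belong to Ndufa8 and Ndufaf4, which had differences of opposite sign, and to Ndufa6, which lay near 0. Each sequence is the 130 bases before the gene start, 5′ to 3′ on the strand of the gene, and capitals mark the NRF1 letters on either strand.
Ndufa8, chr2:36049339-36049468, minus strand: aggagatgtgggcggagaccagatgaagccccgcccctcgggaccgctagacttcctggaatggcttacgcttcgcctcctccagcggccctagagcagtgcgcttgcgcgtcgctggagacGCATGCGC
Ndufaf4, chr4:24897953-24898082, plus strand: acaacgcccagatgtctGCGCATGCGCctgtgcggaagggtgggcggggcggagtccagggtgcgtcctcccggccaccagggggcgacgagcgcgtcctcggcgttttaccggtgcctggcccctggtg
Ndufa6, chr15:82354292-82354421, minus strand: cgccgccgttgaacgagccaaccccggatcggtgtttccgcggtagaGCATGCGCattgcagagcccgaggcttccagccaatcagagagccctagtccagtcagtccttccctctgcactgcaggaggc
In Ndufa8 the letters end at the gene start, and in Ndufaf4 they form the full palindrome. A match is a description of these letters, and an absence says nothing of the factor.

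Another feature of these promoters was a close neighbour. A gene on the opposite strand started within 1000 bases upstream at 12 of 38 promoters, or 31.6%, against 18.0% of the promoters of genes tested. The closest pairs were Ndufa7 with Rps28 (10 bases between the nearest starts), Ndufs3 with Kbtbd4 (19 bases) and Ndufb3 with Fam126b (64 bases). Others included Ndufaf5 with Esf1 (88 bases), Ndufa8 with Morn5 (135 bases) and Ndufb5 with Mrpl47, a mitochondrial ribosomal protein gene (308 bases). The 10 members with such a neighbour had a median log2 difference of −0.11, and the 26 without had −0.06.

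Members did not vary together as one block across the arrays. Over the 741 pairs of members, the median Pearson correlation of log2 signal across the 6 arrays was 0.21, with a range from −0.98 to 0.98; these values share the arrays and their scaling and are given as a description. WT 1 carried the highest signal of 16 of 39 members, or 41.0%, against 18.0% of all genes. Rsk2-KO 1 and Rsk2-KO 2 carried the lowest signal of 11 and 12 members (28.2% and 30.8%, against 21.0% and 17.3% of all genes). Rsk2-KO 3 was the highest array of 10 members. The median deviation of members from their own means was −0.09, −0.12 and 0.08 on the Rsk2-KO arrays and 0.16, 0.01 and −0.03 on the WT arrays. On this measure the groups overlapped, since Rsk2-KO 3 lay above WT 2 and WT 3.

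**Figure D2:**
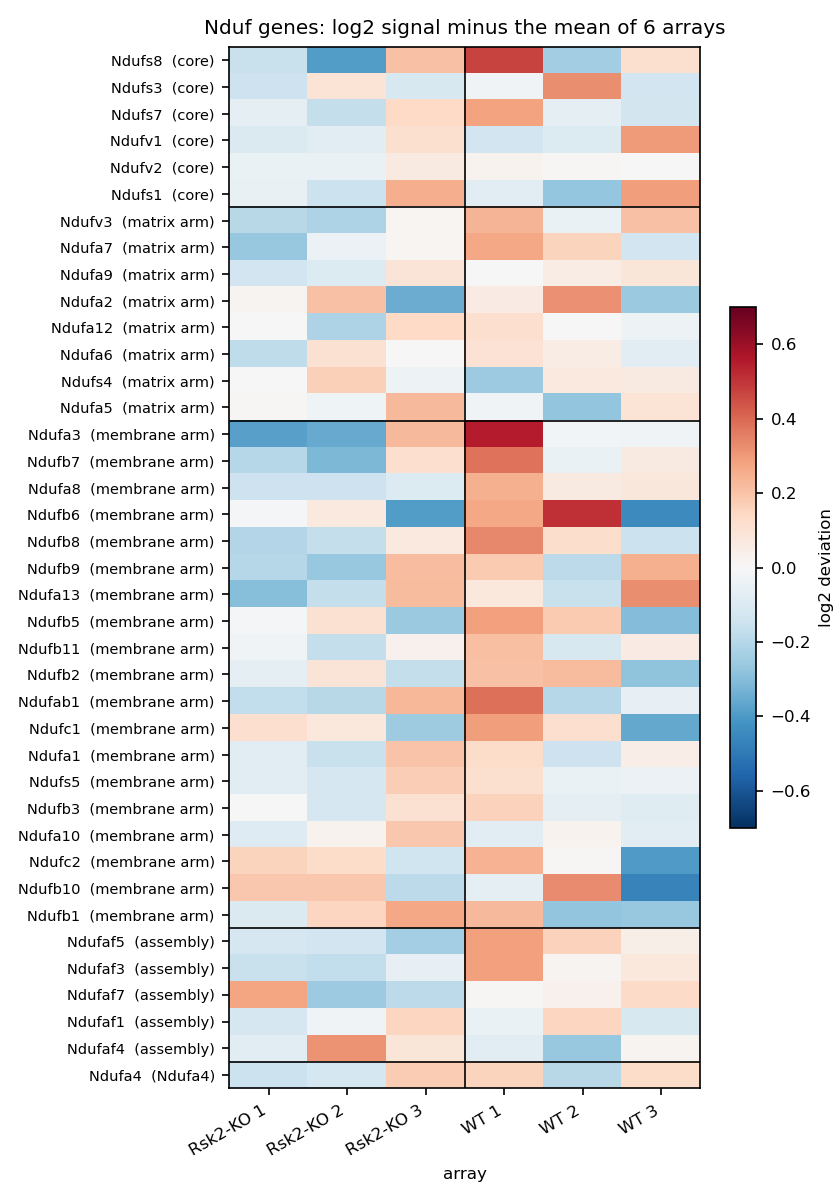
Log2 signal of each Nduf gene minus its mean over the 6 arrays (colour), by array (columns; the vertical line separates Rsk2-KO from WT) and by gene (rows, grouped by role). WT 1 is red in most rows and Rsk2-KO 1 and 2 are mostly blue, while the arrays numbered 3 are blue in rows such as Ndufb6 and Ndufb10 and red in rows such as Ndufs1 and Ndufa13.

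The arrays numbered 3 split the members. Both lay above the other 4 arrays in 6 members, or 15.4%, against 20% of all genes. These were Ndufs1, Ndufa13, Ndufb9, Ndufv1, Ndufa5 and Ndufa9. Both lay below the other 4 in 7 members, or 17.9%, against 11.5% of all genes. The low members were Ndufb6, Ndufb10, Ndufa2, Ndufc1, Ndufb5, Ndufc2 and Ndufb2. Of these, 6 belong to the membrane arm, as do 19 of all 39 members and, among the high members, Ndufa13 and Ndufb9. The other probe sets of Ndufb6 (−1.13), Ndufb5 (−0.70) and Ndufc1 (−0.41) were also lower on the arrays numbered 3. Those of Ndufc2 (0.08) and Ndufb2 (−0.06) lay near 0. Ndufb6 went furthest, with signals of 364 and 350 on the arrays numbered 3 against 472 to 679 on the others, a difference of −0.63. In the opposite direction Ndufs1 gave 534 and 549 against 372 to 433, a difference of 0.41.

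The sign of the genotype difference also depended on the set of arrays. Within the arrays numbered 1 and 2, 31 of 39 members were lower in Rsk2-KO, against 56.4% of all genes, with a median of −0.14. Between the arrays numbered 3, 12 of 39 were lower, against 51.6% of all genes, with a median of 0.07. The signs were negative within the first set and positive in the second for 22 members, or 56.4%, against 26.5% of all genes. Negative in both were 9 members, or 23.1%, against 29.9% of all genes, among them Ndufaf5, Ndufaf3, Ndufa8 and Ndufv3. The second set is 1 array against 1 and has no replicate check. Without both arrays numbered 3, with 2 arrays in each group, 18 of 39 members were lower without overlap, against 32.2% of all genes, and 1 was higher, against 25% of all genes. Limma's adjusted threshold was passed there by 0 of 39 members (lowest adjusted p = 0.0704, Ndufa3), against 3.61% of all genes; at an unadjusted p of 0.05 there were 9 of 39, against 25.7% of all genes.

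**Figure D3:**
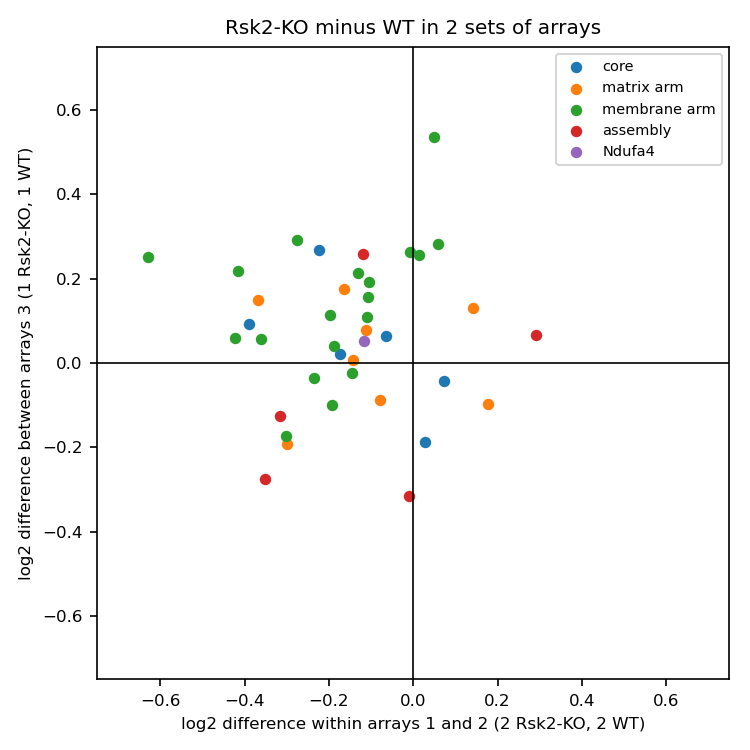
Log2 difference, Rsk2-KO minus WT, of each Nduf gene within the arrays numbered 1 and 2 (x axis, 2 arrays against 2) and between the arrays numbered 3 (y axis, 1 against 1), coloured by role. The upper left part, lower in Rsk2-KO in the first set and higher in the second, holds 22 of the 39 points.

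Other probe sets of the same genes show how far a member's value rests on the probe set used. The members had 74 probe sets, of which 72 passed the limit for dim signals. In 20 members with several kept probe sets, all had the same sign of the genotype difference in 12, or 60%, against 62.0% of all such genes. Ndufb6 (−0.22 and 0.24) and Ndufb5 (−0.11 and 0.30) changed sign between probe sets, and Ndufs8 ranged from −0.80 to 0.11 over its 6 kept probe sets. The lowest of these was dim, at 16.2 to 54.0, and lower without overlap. For Ndufv1 a probe set other than the brightest gave 536, 538 and 652 against 720, 662 and 690, lower without overlap, with a difference of −0.27 (SE 0.13). Ndufb11 likewise had 1 probe set lower without overlap, at −0.34 (SE 0.14). Neither passed limma's test over all probe sets (adjusted p = 0.661 for each). Of the 72 kept probe sets, 6 were lower and 1 was higher without overlap. The shares of all genes, by brightest probe set, were 8.76% and 5.47%, and the share over all probe sets was not counted.

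The split by arrays numbered 3 agreed less between probe sets. Its sign was the same in all kept probe sets of 7 of 20 members, or 35%, against 45.8% of all such genes. Ndufv2 was steady at its brightest probe set (0.04) but lower on the arrays numbered 3 at both others (−0.76 and −0.68). Ndufb9 was 0.35 at one and −0.53 at another, and Ndufa5 0.24 and −0.43. Ndufb6, in contrast, was low on these arrays at both (−0.63 and −1.13). The position of probe sets along the transcripts was not analysed here. In 9 members the brightest probe set had a name ending in _x_at or _s_at, which marks probes that may also match other transcripts; without such probe sets Ndufs8 was 0.11 and Ndufa3 was −0.06.

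**Figure D4:**
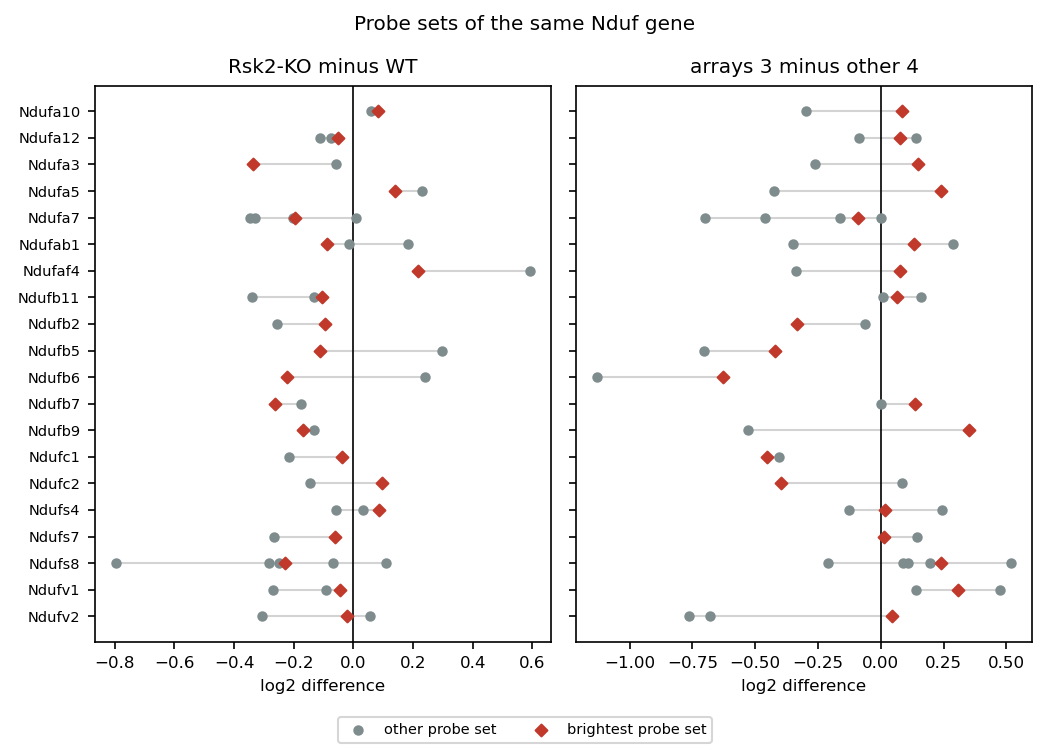
Log2 difference of each kept probe set of the 20 Nduf genes with more than 1, for Rsk2-KO minus WT (left) and for the arrays numbered 3 minus the other 4 (right); red diamonds are the brightest probe set and grey circles the others. Lines that cross 0 join probe sets of opposite sign, which is the case for 8 genes on the left and 13 on the right.

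Most Nduf genes are short. Their median genomic span was 7.69 kb against 23.6 kb for all genes tested, and 34 of 39 lay below the latter. They are spread over the genome, with at most 5 on one chromosome (17). Across all 7860 genes with a span, shorter genes had lower differences (Spearman 0.24; genes share the arrays). Among the 39 members the correlation with span was 0.07. After the trend on span was taken out of each array, the median of the members became 0.01, and 19 of 39 were below 0, against 30 before. Over all genes tested the same step gave a median of −0.008, with 4031 of 7866 below 0, against 4439 before. Ndufaf5, a long member at 48.4 kb, then had −0.35, Ndufa8 −0.19 and Ndufaf3 −0.13. What span contributes to the differences was not tested.

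The other genes of the pathway were read from lists of their own. Of 8 further complex I genes measured, none with the Nduf name, 6 were below 0, with a median log2 difference of −0.13. Dmac1, an assembly factor of the distal membrane arm, was lower without overlap (171, 184 and 202 against 224, 207 and 233; −0.26, SE 0.14). Tmem70, which helps to assemble complexes I and V, was the highest at 0.31 (SE 0.17). The subunits encoded in the mitochondrial genome were not analysed here.

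Complexes II to V gave 44 of 54 measured genes below 0 (against 56.4% of all genes), with a median of −0.15. Of the 54, 0 passed limma's test, and 2 were at an unadjusted p of 0.05, against 7.49% of all genes. By complex the medians were −0.15 for complex II (7 genes), −0.21 for complex III (11 genes), −0.12 for complex IV (17 genes) and −0.12 for complex V (19 genes), against −0.08 for the Nduf genes. Members at the low end were Uqcrc1, a core protein of complex III (−0.46), Cox8a of complex IV (−0.39), and Atp5a1, the alpha subunit of ATP synthase (−0.33). Here too the sets of arrays differed, with medians of −0.23 in those numbered 1 and 2 and 0.02 in those numbered 3. Of 29 mitochondrial proteins outside the chain, 22 were below 0, with a median of −0.12. Whether the Nduf genes differ from these lists was not tested.

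Transcriptional regulators of respiratory genes were mostly above 0, 8 of 12, with a median of 0.14, and 0 passed limma's test (1 of 12 at an unadjusted p of 0.05, against 7.49% of all genes). Ppargc1a, the coactivator PGC-1 alpha that drives mitochondrial biogenesis, gave 102, 107 and 74.4 on the Rsk2-KO arrays and 57.5, 66.9 and 72.3 on the WT arrays. Every Rsk2-KO array was above every WT array, but the arrays numbered 3 nearly met. Its log2 difference was 0.52 (SE 0.19, limma adjusted p = 0.617), with 0.75 in the arrays numbered 1 and 2 and 0.04 in those numbered 3. Its 4 other kept probe sets differed by 0.41 to 0.77, but the groups overlapped in each. Between the arrays numbered 3 those probe sets ranged from −0.21 to 0.63. Gabpa, the DNA-binding subunit of GABP, gave 63.1, 59.9 and 58.8 against 35.2, 48.8 and 51.1, a log2 difference of 0.45 (SE 0.20). The second probe set of Gabpa gave 0.20, with overlapping groups. Tfam, which packages mitochondrial DNA and helps to start its transcription, was also higher without overlap (117, 116 and 123 against 96.7, 103 and 112). Its log2 difference was 0.19 (SE 0.14). By brightest probe set, 3 of the 12 regulators were higher without overlap, against 5.47% of all genes, and 0 were lower, against 8.76%. Nrf1 itself differed by −0.12 at its brightest probe set and 0.10 at the other.

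Markers of other cell types were summed on each array, since hippocampal RNA comes from many cells and fewer cells of a type cannot be told apart from less RNA per cell. Summed microglial markers (7 genes, 5 lower) were 1209 to 1239 on the Rsk2-KO arrays and 1324 to 1354 on the WT arrays. Summed vascular markers (6 genes, 5 lower) were 440 to 504 against 610 to 638, in which Vtn alone gave 158 to 207 against 286 to 324. Both sums did not overlap, and none of their genes was at 0 or passed limma's test. Taken singly, only Vtn and Tyrobp (98.1 to 120 against 122 to 163) were lower without overlap, against 8.76% of all genes. Csf1r, the brightest microglial gene, overlapped (536 to 621 against 599 to 716). The sums thus lean on a few genes and do not show a difference across each list. Sums for hippocampal neurons (2026 to 2360 against 1997 to 2045), inhibitory neurons (1897 to 2279 against 1711 to 2102), astrocytes (2044 to 2517 against 2023 to 2317) and oligodendrocytes (4950 to 5364 against 4377 to 6009) overlapped. Choroid plexus markers ranged from 553 to 1690 against 736 to 2189, nearly all from Ttr, with Folr1 and Aqp1 under the limit for dim signals. Thalamic markers gave 189 to 227 against 180 to 218. The part of these markers in the differences of the Nduf genes was not tested.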

How the data were processed

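Hippocampal RNA of 3 Rsk2-KO and 3 WT pools was measured on Affymetrix mouse arrays. The authors deposited a linear signal intensity for each probe set, made with MAS5 per the submitters' processing notes; its version is not given in the sources used here. With 2% trimmed at each end, every array had a mean of 100.0. Of 22690 probe sets, 20380 had 1 symbol in the GEO platform annotation; symbols were updated by Entrez ID for 20351 of these through the RefSeq table of GRCm38.p6, which also gave spans and promoters. Signals were put on the log2 scale with no added normalization, and the dimmest 40% of probe sets by their mean were dropped (13576 kept). The genotype difference was fitted in R 4.3.3 by limma 3.58.1, using lmFit, then eBayes (trend on intensity), with two-sided p-values adjusted by Benjamini-Hochberg over all 7866 genes; Python 3.11.15 made the tables. The fit was run on simulated data with independent errors. These did not hold the split of the arrays numbered 3, so they do not check the fit under it. Confidence intervals are unadjusted. At 3 arrays per group the smallest p of an exact permutation test is 0.1, so none is given; p-values cover only the spread among pools, which may be technical. No pair of arrays had over 1 equal signal.

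Members and lists were chosen with earlier results of these data known. Signals by array are given for core subunits, assembly factors, Ndufa4, members without overlap, and the 3 largest differences and 3 smallest p-values in each direction. Of each pathway list, the 2 genes with the smallest p in each direction qualified for naming; Tfam and Nrf1 were named after their values were seen. Alternatives are in the closing section.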

Additional observations from a re-analysis of the deposited data

How the results depend on the processing

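Of the Nduf genes, 0 passed limma's adjusted threshold of 0.05 under any of 19 alternatives. Over all genes the count, 0 with all 6 arrays, was 16 with array weights, 1 with the replicate block, 1 with a block for the arrays numbered 3 and 284 without both arrays numbered 3. The median of the members, −0.08, ranged from −0.14 (without both arrays numbered 3) to 0.01 (span trend removed), and from −0.11 to −0.02 with 1 array left out (the latter without WT 1, which also gave the lowest count below 0). Members below 0 were 19 of 39 with the span trend removed and 24 to 32 with 1 array left out. Members lower without overlap were 18 without both arrays numbered 3 (46.2%, against 32.2% of all genes) and 3 to 12 with 1 array left out: 12 without Rsk2-KO 3 (30.8%, against 23.2%), 8 without WT 3 (20.5%, against 17.7%) and 5 without WT 2 (12.8%, against 14.4%). Members higher without overlap were 2 when probe sets were averaged within a gene (5.13%, against 6.29% of all genes), 1 without both arrays numbered 3 (2.56%, against 25.03%), 1 with the span trend removed (2.56%, against 6.65%) and 0 to 2 with 1 array left out: 2 without Rsk2-KO 1 (5.13%, against 7.25%), 1 without WT 1 (2.56%, against 6.98%) and 1 without WT 3 (2.56%, against 17.2%).

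Among 17 named members, 8 kept their sign throughout: Ndufa3, Ndufa5, Ndufa8, Ndufaf3, Ndufaf4, Ndufaf5, Ndufb1 and Ndufv3. Their sizes moved: Ndufa3 lay between −0.63 and −0.06, Ndufb1 between 0.035 and 0.38, and Ndufaf4 between 0.11 and 0.40. Sign changes, all in values far from the threshold, were as follows. Ndufaf1 was −0.014 after quantile normalization, −0.027 after median centring, −0.065 with array weights and −0.12 without both arrays numbered 3. Ndufv2 was 0.011 after quantile normalization and 0.014 with the span trend removed. Ndufaf7 was 0.0030 with array weights. Ndufs8 was 0.11 without _x_at and _s_at probe sets. Ndufv1 was 0.028 without both arrays numbered 3 and 0.056 with the span trend removed, where Ndufa4 was 0.031 and Ndufs7 0.029. With 1 array left out the ranges were −0.066 to 0.082 for Ndufaf1, −0.17 to 0.0017 for Ndufa4, −0.092 to 0.19 for Ndufs1, −0.20 to 0.025 for Ndufs3, −0.15 to 0.065 for Ndufs7 and −0.12 to 0.095 for Ndufv1. The causes were not tested.

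The array numbers are not stated to pair the samples. Deviations of same-numbered arrays correlated at 0.07, 0.37 and 0.40, and Rsk2-KO 1 correlated best with WT 2 (0.20), so the numbers were not taken as pairs. The replicate block left 0 Nduf genes called. The number of arrays limits the precision.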
